A study of Mus musculus with 6 samples.

Results

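The Wnt genes described here are the ligands, frizzled and LRP receptors, secreted antagonists, R-spondins and core relay genes that the array measured in mouse skin. Members were taken by symbol: names starting with Wnt, Fzd, Sfrp, Dkk or Rspo and a digit, together with Dkkl1, Frzb, Wif1, Lrp5, Lrp6, Axin1, Axin2, Ctnnb1, Apc, Tcf3, Tcf4 and Porcn. The rule used no measured value and found 53 genes on 57 probes, of 18617 named genes on the array. All 53 carried the same symbol in RefSeq under their Entrez identifier.

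Skin RNA of 3 wild-type (WT) mice was set against that of 3 mice with the LynDN transgene on 2-colour arrays. Lyn belongs to the Src family of tyrosine kinases, and the series title calls the mice LynDeltaN. Each mouse pair shared 2 arrays of opposite dye orientation: LynDN mouse 1 with WT mouse 1, LynDN mouse 2 with WT mouse 3, and LynDN mouse 3 with WT mouse 2. The pairs are numbered by the LynDN mouse. Strain, age, sex, the promoter of the transgene and the body site of the skin do not appear in the labels. A value is a log2 ratio of the genotypes (base 2 assumed) averaged over the 2 arrays of a pair, and an SD is over the 3 pairs. The numerator is not stated, so signs are those of the deposited table. Arrays of a swap were taken to run the same way, an assumption that over all rows the correlation of the 2 arrays bears out in pairs 2 and 3 (r = 0.463 and 0.462) and not in pair 1 (0.0239). Strongly differing genes had 1 sign on both arrays of pair 1, such as S100a9 at 5.33 and 5.97, and over the members alone r was 0.338, 0.431 and 0.358 in pairs 1, 2 and 3. Positive is the side of the alarmins S100a9 and S100a8, at 5.54 ± 0.16 and 4.61 ± 0.12 (SD, n = 3), which were positive on all 6 arrays. Ratios hold no level, so the skin label could not be checked against defining markers, and fewer cells of a type cannot be told apart from less RNA per cell.

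Wnt proteins are secreted lipid-modified ligands that bind a frizzled receptor together with LRP5 or LRP6. Binding stops a destruction complex of Axin, APC and kinases from breaking down beta-catenin, which then enters the nucleus and acts with TCF/LEF factors. In skin the pathway is known for starting hair follicles and their growth phase, and for sustaining basal keratinocytes.

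Pair 1 stood apart from the other pairs. Over the 53 members its values correlated with those of pairs 2 and 3 at Pearson r = 0.323 and 0.459, against 0.671 between pairs 2 and 3. All 22879 rows had a similar pattern, with r = 0.350 and 0.386, against 0.745 between pairs 2 and 3, so it is not particular to the members. These are correlations across genes, which are not independent replicates. Pair 1 also differed in sex-linked genes: Y-linked Eif2s3y had a log2 ratio of 3.50 in pair 1, with 0.00 and 0.03 in the others, and the X-inactivation RNA Xist had -1.06, against -0.09 and -0.14. These genes mark sex, which the labels do not give, and their opposite signs in pair 1 are those of mice of different sex. Within pair 1 sex cannot be told apart from genotype, and its part in the pair 1 values was not tested.

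No member passed the test on the pair values. In limma, 0 of 53 passed an adjusted p of 0.05 over 22879 rows, of which 4 rows (0.0175%) passed, and the smallest adjusted p among members was 0.123. The 6 arrays were also fitted singly with pair as a random block and a dye term (the block fit). In it 1 of 53 members passed, the antagonist gene Sfrp4, against 1.06% of all rows. The block fit used 1 correlation for all rows (0.151). Dye-swap arrays of the same mice thus counted nearly as separate samples, so its calls lean on technical repeats. At an unadjusted p under 0.05 there were 14 members, 11 negative (20.8%, against 6.41% of all rows) and 3 positive (5.66%, against 5.92%). Members were negative more often than positive, 34 against 19, and all rows leaned the same way, with 12844 negative and 10035 positive. The median member ratio was -0.03, and that of all rows was -0.01.

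The ratios were small. The largest member means were those of Sfrp4 and Dkkl1, both -0.68, and 44 of 53 means lay within 0.25 of 0 on the log2 scale. No member reached a 2-fold mean ratio. The 95% interval of a member mean, from the moderated variance of limma, had a median half-width of 0.17 and a largest one of 0.36. For all 53 members the interval lay within a 2-fold ratio in either direction, and for 43 it lay within 0.5 of 0. The intervals are those of the measured ratios, and signal over background could not be examined. Whether the negative share is particular to these genes was not tested.

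**Figure D1:**
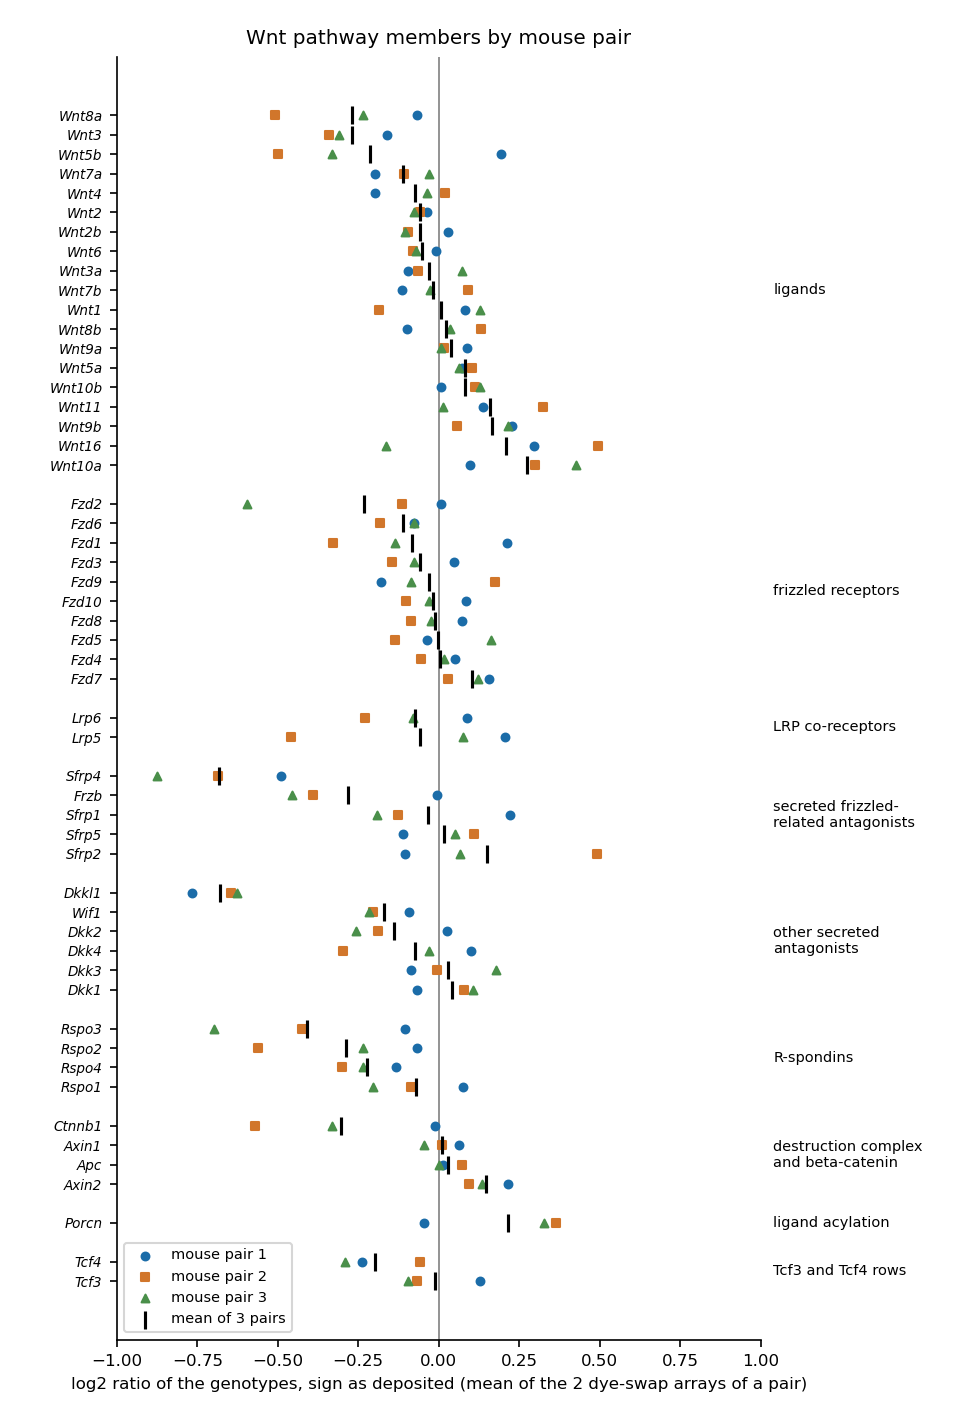
Log2 ratio of each of the 53 members (x axis, sign as deposited) in mouse pairs 1, 2 and 3 (points, each the mean of 2 dye-swap arrays), with the mean of the 3 pairs as a black bar and genes grouped by role. Sfrp4 and Dkkl1, both with a mean of -0.68, lie farthest from 0, and most other means lie within 0.25 of it.

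The 2 members with the smallest p, Dkkl1 and Sfrp4, were grouped here with the secreted antagonists, a grouping made by symbol. Secreted frizzled-related proteins carry a frizzled-type domain and bind Wnt ligands outside the cell. Sfrp4 had ratios of -0.80, -0.89 and -0.80 on the arrays with LynDN in Cy3 of pairs 1, 2 and 3, and -0.18, -0.48 and -0.95 on those with LynDN in Cy5. All 6 arrays were thus negative, and the value closest to 0 came from pair 1. Its mean was -0.68 ± 0.19 (SD, n = 3), a 1.61-fold difference, with a 95% interval from -0.90 to -0.46. In limma its adjusted p was 0.201 on the pair values and 0.0302 in the block fit, and it ranged from 0.0113 to 0.819 over the alternatives.

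Dkkl1 encodes a secreted relative of the Dickkopf proteins and is best known from the testis. It had -0.78, -0.56 and -0.04 on the Cy3 arrays of pairs 1, 2 and 3 and -0.75, -0.74 and -1.22 on the Cy5 arrays. The 2 arrays of pair 3 differed by 1.18, the widest gap between arrays of a pair among members, while the 3 pair values agreed closely at -0.77, -0.65 and -0.63. The mean was -0.68 ± 0.08 (SD, n = 3), and the SD does not carry the gap within pair 3. Dkkl1 did not pass in limma, with adjusted p = 0.123 on the pair values and 0.0535 in the block fit.

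Of the other frizzled-related genes, Frzb had -0.10, -0.22 and -0.48 on the Cy3 arrays of pairs 1, 2 and 3 and 0.09, -0.56 and -0.43 on the Cy5 arrays. It was negative in pairs 2 and 3 and averaged 0.00 in pair 1. Its mean was -0.28 ± 0.24 (SD, n = 3; limma adjusted p = 0.384). Sfrp1, Sfrp2 and Sfrp5 had means of -0.03, 0.15 and 0.02 and lay on both sides of 0 among pairs. The 2 probes of Sfrp1 averaged -0.13 and 0.07.

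Wif1 binds Wnt ligands directly, and the sign of its single arrays followed the dye. It had -0.31, -0.62 and -0.48 with LynDN in Cy3 and 0.12, 0.21 and 0.05 with LynDN in Cy5. Averaged over the swap, in which a dye effect cancels, the 3 pairs gave -0.09, -0.20 and -0.22, all negative, for a mean of -0.17 ± 0.07 (SD, n = 3; limma adjusted p = 0.348; 95% interval -0.31 to -0.03). The Dickkopf genes Dkk1, Dkk2, Dkk3 and Dkk4, of which Dkk1, Dkk2 and Dkk4 act on LRP5 and LRP6, had means between -0.14 and 0.04. The SDs of these 4 genes, from 0.09 to 0.20, were as large as or larger than their means.

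R-spondins amplify Wnt signals by protecting frizzled receptors from removal, through LGR receptors and the ligases ZNRF3 and RNF43. All 4 R-spondin means were negative, as were 12844 of all 22879 row means, and 3 had an unadjusted p under 0.05, which 6.41% of all rows reached on the negative side. Rspo4 had -0.16, -0.14 and -0.31 on the Cy3 arrays of pairs 1, 2 and 3 and -0.11, -0.46 and -0.16 on the Cy5 arrays, with a mean of -0.22 ± 0.08 (SD, n = 3). Rspo2 had -0.11, -0.73 and -0.36 on the Cy3 arrays and -0.03, -0.39 and -0.11 on the Cy5 arrays, with a mean of -0.29 ± 0.25. These 2 genes were negative on all 6 arrays, and in both the pair 1 value was closest to 0.

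Rspo3 was less even. It had -0.28, -0.68 and -0.85 on the Cy3 arrays of pairs 1, 2 and 3 and 0.07, -0.16 and -0.55 on the Cy5 arrays, with a mean of -0.41 ± 0.30 (SD, n = 3). In limma the adjusted p of these 3 genes was 0.297 for Rspo4, 0.384 for Rspo2 and 0.326 for Rspo3, so none passed, and Rspo1 had a mean of -0.07 ± 0.14. The receptors and ligases, named for their role, did not pass either. Lgr4 and Lgr5 both had a mean of -0.06, Znrf3 had -0.07 and Rnf43 had -0.22 ± 0.29 (limma adjusted p = 0.518). Lgr6 had 0.07, with opposite signs in the 2 dye orientations.

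**Figure D2:**
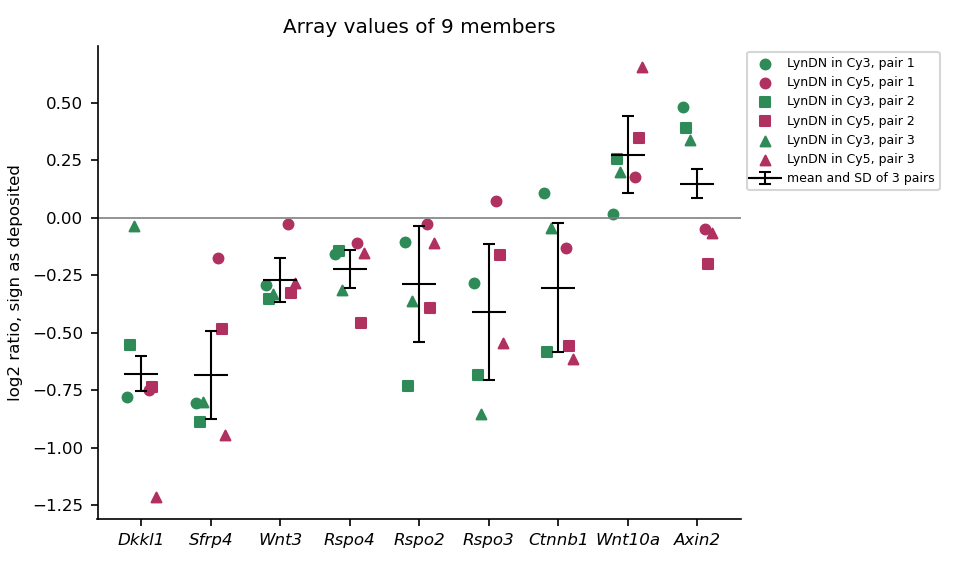
Log2 ratio (y axis, sign as deposited) of 9 members on each of the 6 arrays, with colour for the dye of LynDN and symbol for the mouse pair, beside the mean and SD of the 3 pairs. Sfrp4, Dkkl1, Wnt3, Rspo4 and Rspo2 were negative on all arrays, while Axin2 was positive with LynDN in Cy3 and negative with LynDN in Cy5.

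The 19 Wnt ligands were spread evenly about 0, with 9 positive and 10 negative means from -0.27 to 0.27. Wnt3, a ligand expressed in skin epithelium, had -0.29, -0.35 and -0.33 on the Cy3 arrays of pairs 1, 2 and 3 and -0.03, -0.33 and -0.28 on the Cy5 arrays. All arrays were negative, 5 of them near -0.3 and 1 near 0, with a mean of -0.27 ± 0.10 (SD, n = 3; limma adjusted p = 0.278). Wnt10a, a ligand whose loss disturbs hair, teeth and sweat glands, lay on the other side. It had 0.02, 0.25 and 0.20 on the Cy3 arrays and 0.17, 0.35 and 0.65 on the Cy5 arrays, positive on all 6, with a mean of 0.27 ± 0.17 (SD, n = 3; limma adjusted p = 0.322).

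Wnt8a had a similar mean to Wnt3 with less even arrays. Its Cy3 arrays gave -0.14, -0.88 and -0.13 and its Cy5 arrays 0.01, -0.14 and -0.34, so the mean of -0.27 ± 0.22 (SD, n = 3; limma adjusted p = 0.378) leaned on 1 array of pair 2. Wnt9b had 0.30, 0.24 and 0.55 on the Cy3 arrays and 0.16, -0.13 and -0.12 on the Cy5 arrays, with a mean of 0.17 ± 0.10 (SD, n = 3; limma adjusted p = 0.384). The mean of its Cy5 arrays alone was -0.03.

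Wnt5a, the best known ligand of beta-catenin-independent signalling, was positive on all 6 arrays at a low 0.08 ± 0.02 (SD, n = 3), with a 95% interval from -0.05 to 0.21. Its close relative Wnt5b had 0.19 in pair 1 and -0.50 and -0.33 in pairs 2 and 3. Wnt10b, which promotes hair growth, had 0.08 ± 0.07, and Wnt16 had 0.21 ± 0.34. Wnt3a, Wnt7a and Wnt7b had means of -0.03, -0.11 and -0.02, and the remaining 8 ligands had means between -0.07 and 0.16. Over all members, 2 (Wnt10a and Wnt5a) were positive and 5 (Dkkl1, Sfrp4, Wnt3, Rspo4 and Rspo2) negative on every array, which is 3.77% and 9.43%, against 3.72% and 4.31% of all rows.

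Porcn, the membrane enzyme that attaches the lipid to Wnt proteins, had -0.13, 0.25 and 0.32 on the Cy3 arrays of pairs 1, 2 and 3 and 0.04, 0.49 and 0.33 on the Cy5 arrays. It was near 0 in pair 1 and positive in the others, with a mean of 0.22 ± 0.23 (SD, n = 3; limma adjusted p = 0.458).

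Receptors gave the flattest group. Of 10 frizzled genes, 8 had negative and 2 positive means, from -0.23 for Fzd2 to 0.10 for Fzd7, and 0 had an unadjusted p under 0.05. The smallest p belonged to Fzd6, a receptor that orients hair follicles, with 0.01, -0.06 and 0.15 on the Cy3 arrays and -0.17, -0.30 and -0.30 on the Cy5 arrays. Its mean was -0.11 ± 0.06 (SD, n = 3; limma adjusted p = 0.474), and the sign turned with LynDN in Cy3 alone. Fzd2 had -0.11 in pair 2 and -0.60 in pair 3, with 0.01 in pair 1. The co-receptor Lrp5 had 0.21, -0.74 and 0.29 on the Cy3 arrays and 0.21, -0.18 and -0.14 on the Cy5 arrays, for a mean of -0.06 ± 0.35. Lrp6 had 0.26, -0.13 and -0.17 on the Cy3 arrays and -0.08, -0.33 and 0.01 on the Cy5 arrays, for a mean of -0.07 ± 0.16 (SD, n = 3 for both). Neither had a settled side, and leaving out pair 2 turned both positive, to 0.14 for Lrp5 and 0.0048 for Lrp6.

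In the relay inside the cell, Axin2 is the usual marker of beta-catenin activity, because it is both a scaffold of the destruction complex and a target of the pathway. It had 0.48, 0.39 and 0.34 on the arrays with LynDN in Cy3 of pairs 1, 2 and 3, and -0.05, -0.20 and -0.07 with LynDN in Cy5. The orientations therefore lay on opposite sides in every pair, and the dye term of the block fit passed (difference of Cy5 minus Cy3 arrays -0.51, limma adjusted p = 0.0360). The averaged ratio, in which a dye effect cancels, was 0.15 ± 0.06 (SD, n = 3; limma adjusted p = 0.384; 95% interval 0.01 to 0.29). The interval of Axin2 thus left out a 2-fold ratio in either direction.

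Ctnnb1, the gene of beta-catenin itself, had 0.11, -0.58 and -0.05 on the Cy3 arrays of pairs 1, 2 and 3 and -0.13, -0.56 and -0.62 on the Cy5 arrays. Pairs 2 and 3 were negative on both arrays, and pair 1 averaged -0.01. The mean was -0.30 ± 0.28 (SD, n = 3; limma adjusted p = 0.393). Axin1 and Apc, the other scaffolds, had means of 0.01 ± 0.05 and 0.03 ± 0.04. The 3 probes of Apc averaged -0.05, 0.09 and 0.04.

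**Figure D3:**
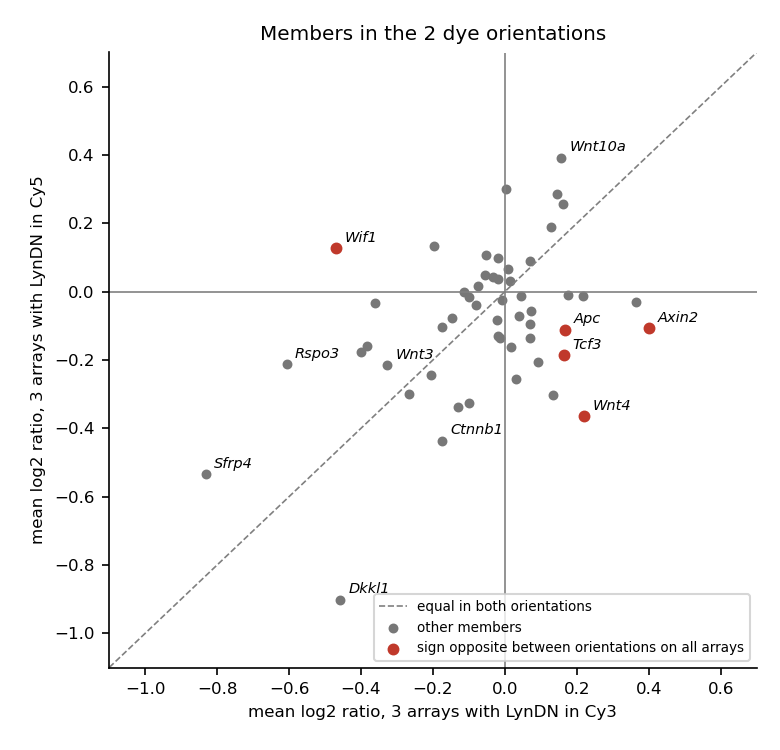
Mean log2 ratio of each member over the 3 arrays with LynDN in Cy3 (x axis) against that over the 3 arrays with LynDN in Cy5 (y axis), with red points for members whose sign was opposite between the orientations on all arrays. Wif1 and Axin2 lie far from the dashed line of equal values, and Sfrp4 and Dkkl1 are negative in both orientations.

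Several members had opposite signs in the 2 dye orientations, at a share below that of all rows. For 5 of 53 (9.43%, against 11.4% of all rows) every array of one orientation lay opposite to every array of the other: Wif1, Axin2, Wnt4, Apc and Tcf3. The dye term of the block fit passed for 2 members, Wif1 and Axin2 (3.77%, against 2.56% of all rows). The median size of the dye difference over members was 0.16 (0.15 over all rows), and that of the genotype mean was 0.08 (0.06 over all rows). The first is a gap between the orientations and the second their average, so the sizes are not on the same scale.

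The rows named Tcf3 and Tcf4 are not TCF/LEF factors of the pathway. Their Entrez identifiers belong to the E proteins E2A and E2-2 in RefSeq, basic helix-loop-helix factors whose symbols were also used for Tcf7l1 and Tcf7l2. Tcf4 (E2-2) had -0.52, -0.17 and -0.39 on the Cy3 arrays and 0.04, 0.05 and -0.19 on the Cy5 arrays, with a mean of -0.20 ± 0.12 (SD, n = 3; limma adjusted p = 0.362). Tcf3 (E2A) had a mean of -0.01 ± 0.12. The TCF/LEF genes proper, named for their role, had means of -0.04 ± 0.05 for Lef1, -0.11 ± 0.34 for Tcf7l1 and -0.04 ± 0.18 for Tcf7l2, and none passed (limma adjusted p = 0.794, 0.759 and 0.871). Lef1 had opposite signs in the 2 dye orientations. Tcf7l1, a transcriptional repressor active in the bulge, had 0.27 in pair 1 and -0.31 in both others.

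The count of calls depended on pair 1. With pairs 2 and 3 alone, 5 of 53 members passed in limma, all negative, a larger share than the 381 of 22879 rows (1.67%) that passed negative. They were Sfrp4 at -0.78 (adjusted p = 0.0113), Dkkl1 at -0.64 (0.0113), Frzb at -0.42 (0.0340), Rspo3 at -0.56 (0.0376) and Wnt5b at -0.42 (0.0494). Without pair 2 or without pair 3, 0 members passed. Of the 14 members with an unadjusted p under 0.05, 10 had a pair 1 value smaller in size than those of pairs 2 and 3. The share of all rows was not counted. Values of pair 1 were narrower over the whole array, with an SD across rows of 0.259 and 0.270 on its arrays. On the arrays of pairs 2 and 3 that SD was 0.333 to 0.359. Whether the count of 10 is particular to the members was not tested.

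Other genes of the pathway also had few calls. Of 107 further genes on 6 lists (receptor modulators, secretion and extracellular inhibitors, intracellular relay, TCF/LEF partners, target genes and planar polarity), 0 passed on the pair values. At an unadjusted p under 0.05 there were 8 positive (7.48%, against 5.92% of all rows) and 10 negative (9.35%, against 6.41%). In the block fit 1 passed on each side (1.87% together, against 1.06% of all rows): the kinase gene Csnk1d, at 0.31 ± 0.02 (SD, n = 3; limma adjusted p = 0.0350 there and 0.237 on the pair values), and the target gene Id2, at -0.32 ± 0.03 (0.0496 and 0.237). Id2 is also a target of BMP signals. Both kept 1 sign on all 6 arrays.

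Secretion and extracellular inhibitor genes were negative in 9 of 9 means, with a median of -0.06. Sostdc1, an antagonist of Wnt and BMP signals made in skin epithelium, had -0.42 ± 0.21, the inhibitor gene Apcdd1 had -0.40 ± 0.38 and Wls, the carrier of Wnt proteins to the cell surface, had -0.22 ± 0.11 (SD, n = 3). Receptor modulators had a median of -0.08, with 4 of 14 means positive, and the glypican gene Gpc3 had -0.37 ± 0.18. Its Cy3 arrays lay between -0.92 and -0.52 and its Cy5 arrays between -0.10 and 0.19. Gpc4 and Ptk7 had -0.20 ± 0.08 and -0.14 ± 0.10 (SD, n = 3).

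Of 28 target genes, 12 means were positive and 16 negative, from -0.40 to 0.46 with a median of -0.05. At an unadjusted p under 0.05 there were 5 positive and 3 negative, which 5.92% and 6.41% of all rows reached. After Id2 the smallest p belonged to Enc1, at 0.21 ± 0.05, and Tnfrsf19, at -0.40 ± 0.25 (SD, n = 3). Of the 27 relay genes 10 means were positive, with the beta-catenin inhibitor Ctnnbip1 at -0.26 ± 0.17 and the Dishevelled antagonist Nkd1 at -0.16 ± 0.04. The 19 TCF/LEF genes and partners had a median of -0.04, with Tle2 at -0.14 ± 0.09, Bcl9l at -0.17 ± 0.15 and Ep300 at -0.12 ± 0.02. The 15 planar polarity genes had a median of -0.04, with Vangl1 at 0.20 ± 0.12 and Invs at -0.17 ± 0.06 (SD, n = 3). Apart from Id2 and Csnk1d, no gene of these 4 lists named with a value here passed on the pair values or in the block fit.

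Marker genes of several skin compartments were also farthest from 0 in pairs 2 and 3. Hair follicle matrix and shaft genes were negative in 16 of 18 means, with medians of 0.01, -0.75 and -0.68 in pairs 1, 2 and 3. Skeletal muscle genes were negative in 10 of 11, with medians of -0.02, -0.58 and -0.69, and melanocyte genes in 9 of 10, with 0.21, -0.55 and -0.41. Dermal papilla genes, a list that includes Rspo3, were negative in 15 of 17, with medians of 0.01, -0.18 and -0.15, and bulge genes in 10 of 14, with 0.01, -0.26 and -0.31. Dermal fibroblast genes, by contrast, had -0.16, -0.07 and -0.05, negative in 8 of 12. Basal keratinocyte genes were positive in 8 of 10, with 0.15, 0.42 and 0.31, and macrophage genes in 12 of 13, with -0.04, 0.46 and 0.81. Their part in the member ratios was not tested. Of 126 genes on 10 cell type lists, members aside, 0 passed on the pair values and 7 passed in the block fit (5.56%, against 1.06% of all rows). On the negative side these were the hair genes Krt33a, Krt34, Krtap3-3 and Krtap4-7 and the bulge keratin Krt15, at -1.36 ± 0.33 (SD, n = 3). On the positive side they were Itgb4 and Krt14, the latter at 1.34 ± 0.54.

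**Figure D4:**
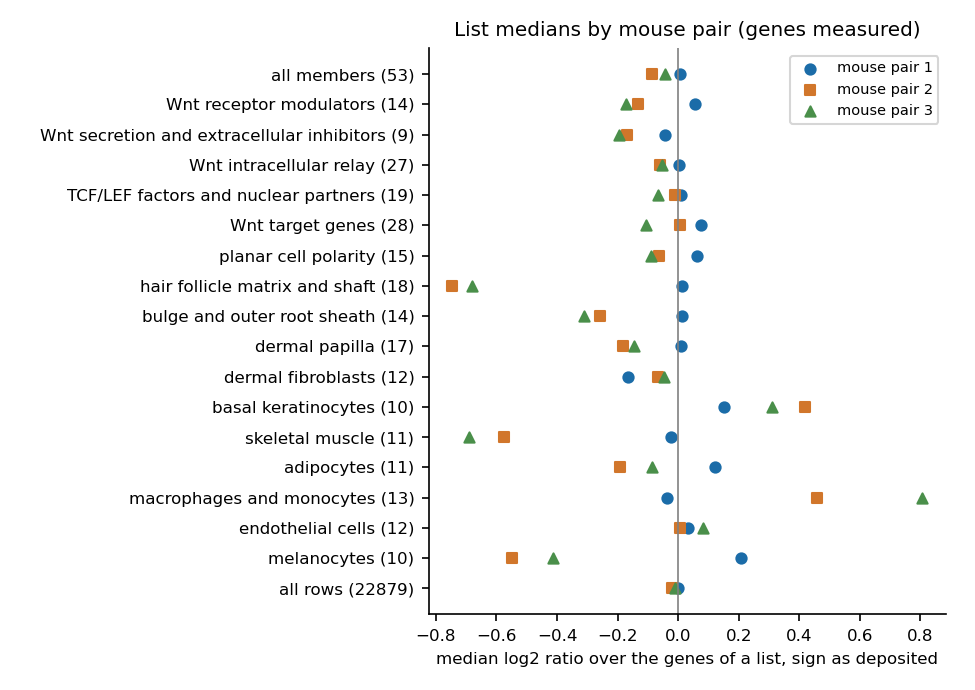
Median log2 ratio over the genes of each list (x axis, sign as deposited; number of genes measured in brackets) in mouse pairs 1, 2 and 3. Members and pathway lists lie between -0.20 and 0.07, while hair, muscle and melanocyte lists reach -0.41 or below in pairs 2 and 3 and stay between -0.02 and 0.21 in pair 1.

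Promoter sequences were searched for the TCF/LEF core motif in the 250 bases before the start of transcription (RefSeq, GRCm38.p6), where 33 members had an entry. The letters searched, on both strands, were CTTTG followed by AA, AT, TA or TT. A match stood in 4 of 37 member windows (10.8%), against 14.8% of all 32851 windows. The 4 stretches are shown 5′ to 3′ along the gene, with the match in capitals, because a target of the pathway could carry it. Dkk1 (chr19:30549572-30549631, minus strand) held 2 matches, and Fzd7 (chr1:59481990-59482049, plus), 1 start of Wnt11 (chr7:98835034-98835093, plus) and 1 of 3 starts of Wnt5b (chr6:119449425-119449484, minus) held 1 each. The other Wnt11 window held no match.
Dkk1: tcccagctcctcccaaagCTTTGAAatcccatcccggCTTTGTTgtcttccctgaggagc
Fzd7: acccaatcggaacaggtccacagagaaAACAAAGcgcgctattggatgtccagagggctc
Wnt11: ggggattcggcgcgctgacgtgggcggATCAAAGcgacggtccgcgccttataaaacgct
Wnt5b: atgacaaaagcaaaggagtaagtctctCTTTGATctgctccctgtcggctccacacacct
The genotype ratios of these genes were 0.04 ± 0.09 for Dkk1, 0.10 ± 0.07 for Fzd7, 0.16 ± 0.16 for Wnt11 and -0.21 ± 0.36 for Wnt5b (SD, n = 3), and none passed. Of the members negative on all arrays, Dkkl1, Wnt3 and Rspo4 had an entry, and these letters were not in their windows or in that of Axin2. The 100 bases before the start are shown for the 2 of them with the smallest p, Dkkl1 (chr7:45211884-45211983, minus) and Wnt3 (chr11:103774075-103774174, plus), as the stretches nearest the start that lacked the letters.
Dkkl1: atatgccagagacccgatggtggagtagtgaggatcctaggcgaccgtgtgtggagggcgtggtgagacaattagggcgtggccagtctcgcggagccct
Wnt3: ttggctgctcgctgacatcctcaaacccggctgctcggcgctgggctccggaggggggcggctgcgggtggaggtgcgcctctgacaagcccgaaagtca
A match or its absence is a description of these letters only.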

How the data were processed

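The authors deposited 1 log2 ratio (base assumed) per probe and array for 25344 probes. RNA was extracted with Qiagen and labelled with Ambion reagents, per the labels' protocols. Each deposited column has a mean of 0. For the scanner, background correction and normalization, the method is not given in the sources used here. Depth does not apply to arrays, and the number of arrays limits the precision. Spot intensities were not used here.

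Probes were named through the platform annotation. Probes with 1 symbol were averaged per symbol (22879 rows in all), and the 2 arrays of a dye swap were averaged. Both arrays of a swap carry RNA of the same mice, per the labels' source names, which is where the pairing comes from. Array deviations of the same pair correlated at 0.391, 0.182 and 0.126 over all rows. For each row, lmFit and eBayes of limma 3.58.1 (R 4.3.3) compared the mean of the 3 pairs with 0, with Benjamini-Hochberg adjustment over all rows and a threshold of 0.05. The block fit used the 6 arrays with a dye term and duplicateCorrelation (0.151). The test was checked on simulated data with shifts larger than any member mean, so the check does not bear on differences of the size seen in members.

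Members and lists were chosen with earlier results of these data known. Array values were given for Axin2, Ctnnb1, Lrp5, Lrp6, Dkkl1, members passing in limma or the block fit, and the 16 members with the smallest p. For each pathway list, up to 3 genes with the smallest p were named, and for the cell type lists the genes that passed in the block fit. Other genes were named for their role, and Frzb, Rspo3 and Wnt5b also for passing without pair 1. Rows of 10 members lie at or after row 21000, where most rows are given to at most 3 significant digits. Figures used matplotlib 3.10.9. Alternatives were quantile normalization, median centring, single dye orientations, leaving out a pair, robust eBayes, the median of probes, probes as rows, and members without Tcf3 and Tcf4.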

Additional observations from a re-analysis of the deposited data

Results flagged for a closer look

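For 5 members every array with LynDN in Cy3 lay on the opposite side of 0 from every array with LynDN in Cy5, and the difference of the orientations (Cy5 minus Cy3) was tested by the dye term of the block fit. Wif1 had a difference of 0.60 (limma adjusted p = 0.0373), from -0.47 to 0.13. Axin2 had -0.51 (limma adjusted p = 0.0360), from 0.40 to -0.11. The term did not pass for Wnt4 with -0.59 (adjusted p = 0.0537), Tcf3 with -0.35 (adjusted p = 0.105) and Apc with -0.28 (adjusted p = 0.114). Averaging a dye swap cancels such a difference in the genotype ratio, and its source was not tested.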

How the results depend on the processing

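No member passed after median centring, robust eBayes, the median of probes, every probe as a row, LynDN in Cy5 alone, or without Tcf3 and Tcf4. In each of the replicate block, quantile normalization and LynDN in Cy3 alone, 1 member passed, Sfrp4 (adjusted p = 0.0302, 0.0298 and 0.0339). Leaving out 1 pair gave 0 to 5 members (5 without pair 1). Rows called numbered 4 as reported, 243 with the replicate block (138 positive, 105 negative), 72 with quantile normalization (53 and 19), 54 with LynDN in Cy3 alone (42 and 12), 24 with LynDN in Cy5 alone (12 and 12), and 2 to 1117 when a pair was left out (1117 without pair 1). The member median stayed between -0.07 and -0.01. Signs turned for Axin2 (-0.11), Wif1 (0.13) and Wnt9b (-0.032) with LynDN in Cy5 alone and for Fzd6 (0.032) with LynDN in Cy3 alone. When a pair was left out, Lrp5 lay between -0.19 and 0.14 and Lrp6 between -0.15 and 0.0048. The causes were not tested. Of the 18 members with array values, the other settings kept each sign. Signal over background could not be examined.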
